A study of Homo sapiens with 4 samples.

Results

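The genes that encode RAS, RAF, MEK and ERK proteins were examined for c-MYC binding in MIA PaCa-2 cells, an established line of human pancreatic ductal adenocarcinoma. The set consists of 7 named genes (NRAS, HRAS, BRAF, MAP2K1, MAP2K2, MAPK3 and SOS1) of 19663 protein-coding genes and was listed by name. A promoter peak of a gene was taken as a c-MYC or IgG peak whose summit lay within 1 kb of the start of a protein-coding transcript, and peaks in the gene or within 10 kb of it were counted separately. Before chromatin was collected, the cells received the solvent DMSO, 100 nM of the inhibitor AMG510 or 10 nM of trametinib, an inhibitor of MEK, for 8 h. Chromatin immunoprecipitation followed by sequencing (ChIP-seq) with a c-MYC antibody was carried out once for each treatment, and once with IgG, a non-specific antibody, in DMSO. There are thus 4 libraries with no replicate, so no test between treatments was possible, and every difference below is between single libraries. All groups are of this 1 cell line, and the peak lists hold no marker by which the line could be checked.

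In the pathway these genes encode, receptors at the membrane recruit SOS1, which loads RAS proteins such as NRAS and HRAS with GTP. GTP-bound RAS activates RAF kinases such as BRAF, which phosphorylate MEK1 and MEK2, the products of MAP2K1 and MAP2K2. MEK phosphorylates the ERK kinases, of which ERK1 is the product of MAPK3, and ERK signalling is known to raise the level and stability of c-MYC. The pathway is a main driver of growth in pancreatic cancer, and trametinib acts on the products of 2 genes of the set.

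The number of tags (read ends placed on the genome) that entered peak calling was estimated at 22700000 to 24800000 per library. The estimate came from the genome-wide background and smallest peak width of each list with an assumed genome size, and is not a read count. By the study's counts of uniquely mapped reads, trametinib had the fewest, whereas the estimate was highest there. The number of peaks ranged from 5431 in trametinib to 10378 in AMG510 among the c-MYC lists, with 9552 in DMSO, and was 2966 for IgG. Where the local background equals that of the genome, 8 tags at a summit were enough for a call in DMSO and trametinib, and 7 in AMG510 and IgG. The sources used here do not give whether peaks were called against IgG as a control, and tags were solved as if each list was called against the background of its own library. In each list, 100% of the backgrounds solved in this way that exceeded the genome's came to whole tags in a 10 kb window. The intervals given with tags are exact 95% Poisson intervals. They cover counting error only and are too narrow where both mates of a read pair were counted.

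The sequence before the start of NRAS and of MAPK3 is shown first, because these were the members in which the canonical E-box, the sequence CACGTG that c-MYC binds together with MAX, lay near a summit. Both stretches are the 250 bases before the RefSeq start on GRCh38.p14, on the minus strand and read 5′ to 3′ towards the gene, from chr1:114716772-114717021 for NRAS and chr16:30123221-30123470 for MAPK3. Capitals mark CACGTG and, in MAPK3, the noncanonical E-box CACGCG.
NRAS: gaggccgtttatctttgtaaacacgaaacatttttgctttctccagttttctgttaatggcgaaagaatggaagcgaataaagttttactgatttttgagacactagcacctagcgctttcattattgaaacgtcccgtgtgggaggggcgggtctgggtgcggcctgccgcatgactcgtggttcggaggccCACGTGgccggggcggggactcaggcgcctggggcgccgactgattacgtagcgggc
MAPK3: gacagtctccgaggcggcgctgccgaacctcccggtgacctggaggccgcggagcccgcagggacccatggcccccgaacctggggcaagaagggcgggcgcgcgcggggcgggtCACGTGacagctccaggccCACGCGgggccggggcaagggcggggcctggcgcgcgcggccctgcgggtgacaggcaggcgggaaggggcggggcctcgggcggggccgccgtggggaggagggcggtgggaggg

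In DMSO, 5 of the 7 genes had a c-MYC promoter peak, namely NRAS, BRAF, MAP2K1, MAP2K2 and MAPK3. This is 71.4% of the set, where 24.2% of all protein-coding genes had one. In AMG510, BRAF, MAP2K1 and SOS1 had a promoter peak (3 of 7, with 15.3% of all genes), and in trametinib NRAS, BRAF and MAP2K1 had one (3 of 7, with 11.8% of all genes). The IgG list held none for the set, and 0.559% of all genes had one there. HRAS had no promoter peak in any list. The share of the set was above that of all genes in each c-MYC list, but the set is small and its genes were chosen with earlier results of these data known, so the counts are a description. With a fold enrichment above 5, the count was 2 of 7 in DMSO (NRAS and MAP2K2), 0 in AMG510 and 3 in trametinib, where 12.1, 5.75 and 4.87% of all genes had such a promoter peak. With a score above 60, it was 1 (NRAS), 0 and 0, where 9.81, 2.98 and 2.93% of all genes had one; the score is 10 times the −log10 q-value.

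**Figure D1:**
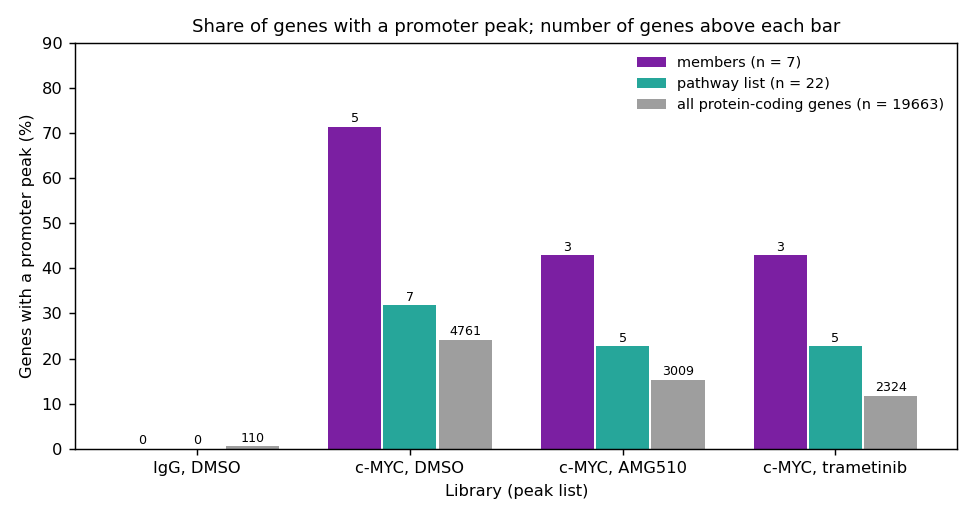
Share of genes with a promoter peak in each of the 4 peak lists (y axis, percent), for the 7 members, 22 other genes of the pathway and all 19663 protein-coding genes, with the number of genes above each bar. The members stand at 5 of 7 in DMSO c-MYC and at 3 of 7 in each drug list, and at 0 in IgG.

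Taken by pattern over the c-MYC lists, BRAF and MAP2K1 had a promoter peak in all 3, as did 5.59% of all genes. NRAS had one in DMSO and trametinib but not in AMG510, a pattern of 2.94% of all genes. MAP2K2 and MAPK3 had one in DMSO alone, as did 10.9% of all genes, and SOS1 in AMG510 alone, as did 4.21%. HRAS belonged with the 68.3% of genes that had no promoter peak under any treatment. The absence of a peak means that tags stayed below the calling limit, and the number of tags at such a site is not known.

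**Figure D2:**
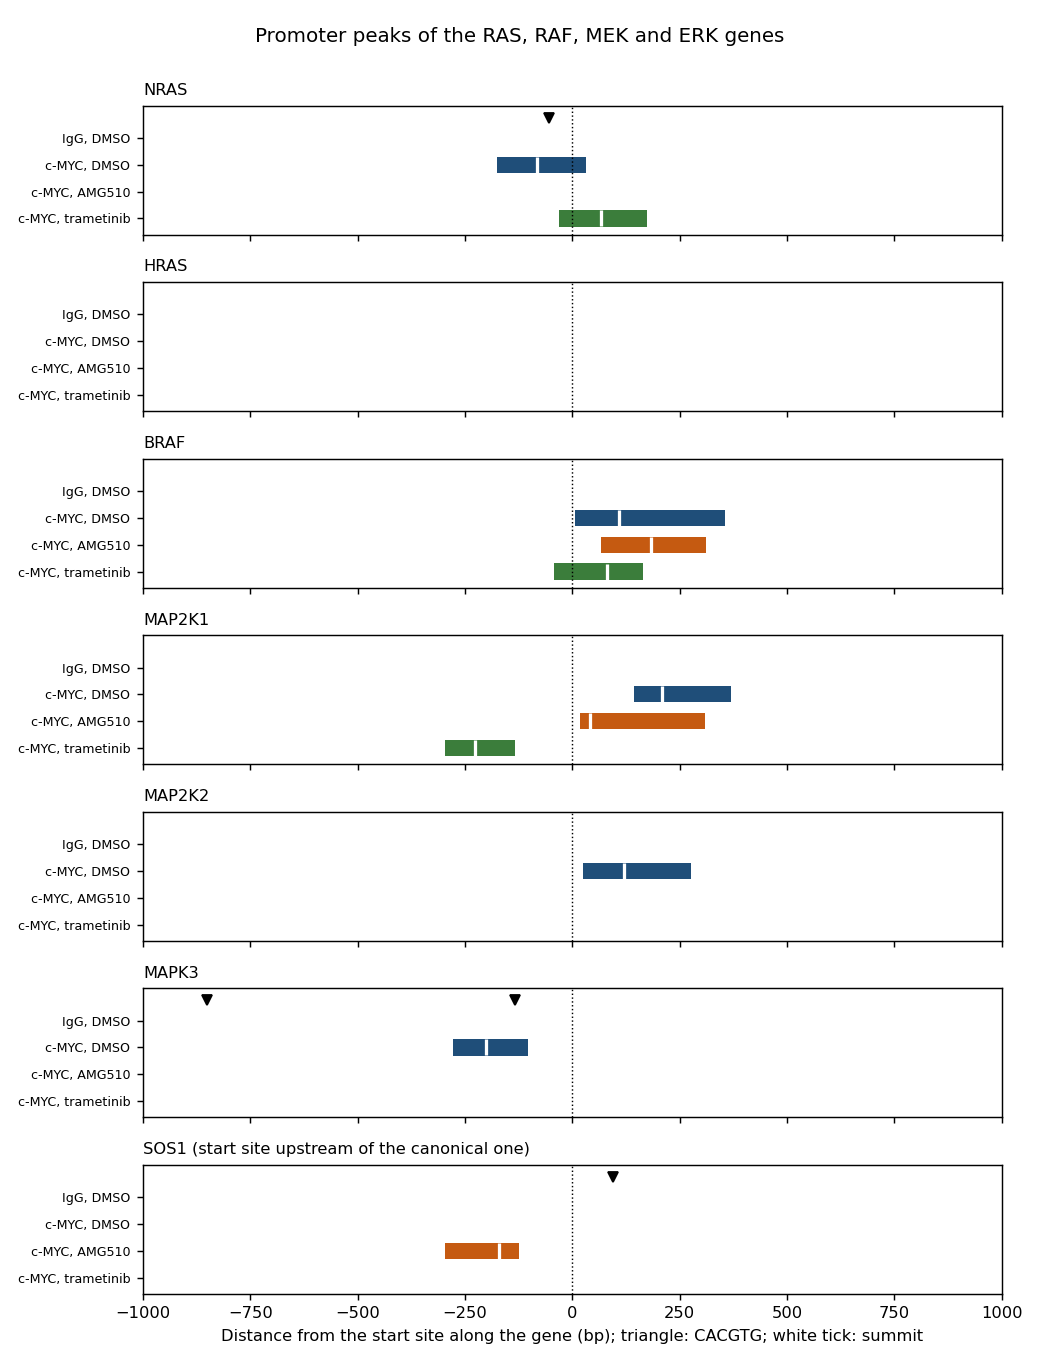
Promoter peaks of the 7 genes (bars, from peak start to end, with the summit as a white tick) in each library, by distance in bp from the canonical start site (for SOS1, the upstream start site), with negative values upstream. Triangles mark CACGTG. The BRAF peaks of the 3 c-MYC libraries overlap, whereas the trametinib peak of MAP2K1 lies on the other side of the start site from the DMSO and AMG510 peaks.

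SOS1, the exchange factor that loads RAS with GTP, is a minus-strand gene on chromosome 2, at 38962206 to 39124345. Transcription of the canonical form starts at 39121051. Its sole promoter peak was in AMG510, from 39124468 to 39124642, with 13 tags at the summit (6.92 to 22.2). The summit lay 171 bp upstream of a coding start at 39124345 but 3465 bp upstream of the canonical start, so the gene has no promoter peak when the canonical transcript alone is used. The fold enrichment of this peak, the ratio of tags to background after 1 is added to each, was 3.97 and exceeded 25.8% of AMG510 peaks. The AMG510 list also had a peak in intron 1 of SOS1, from 39095357 to 39095581, with 12 tags (6.20 to 21.0). In DMSO and trametinib the nearest peak was 211 kb from the gene. An E-box was present near the upstream start, 264 bp from the AMG510 summit and outside the peak.

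NRAS, a RAS GTPase, is a minus-strand gene on chromosome 1, at 114704469 to 114716771 and has a single coding start, at 114716771. The DMSO peak, from 114716740 to 114716946, had its summit 83 bp upstream of the start and 16 tags (9.15 to 26). Its fold enrichment, 5.63, was the highest of the set in any c-MYC list and exceeded 80.8% of DMSO peaks. The E-box printed above, at 114716823 to 114716828, lay inside this peak, 26 bp from the summit and 57 bp upstream of the start.

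In trametinib the NRAS peak, from 114716597 to 114716803, held 14 tags (7.65 to 23.5), and its fold enrichment, 5.19, exceeded 73.9% of the list. The tag intervals of the DMSO and trametinib summits overlap. The position differed: the trametinib summit lay 67 bp downstream of the start, in the 5′ UTR of exon 1, and 150 bp from the DMSO summit, and the peaks shared 64 bp. The E-box was 119 bp from the trametinib summit and outside that peak. The 30 bases at each summit, on the gene strand and with no E-box, are given to show how far the centres lie from it, from chr1:114716840-114716869 for DMSO and chr1:114716690-114716719 for trametinib.
NRAS, DMSO summit: gtctgggtgcggcctgccgcatgactcgtg
NRAS, trametinib summit: ctccaacatttttcccggctgtggtcctaa

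No AMG510 peak was called within 172 kb of NRAS. The DMSO peak was thus overlapped in trametinib but not in AMG510. Of the 643 DMSO promoter peaks in the same decile of the list by fold enrichment (decile 9 of 10), AMG510 peaks overlapped 44.9% and trametinib peaks 35.5%.

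HRAS, the other RAS gene of the set, is a minus-strand gene on chromosome 11, at 532242 to 537321 and has 5 coding start sites. No list had a peak in the gene or within 10 kb of it. The nearest c-MYC peaks were 25.7 kb away in DMSO, 25.7 kb in AMG510 and 24.6 kb in trametinib, in each case a promoter peak of RNH1, which encodes a ribonuclease inhibitor. These RNH1 peaks held 15 tags (8.40 to 24.7), 16 tags (9.15 to 26) and 13 tags (6.92 to 22.2), respectively. Neither E-box form was found within 1 kb of the canonical HRAS start.

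BRAF, a RAF kinase, is a minus-strand gene on chromosome 7, at 140719327 to 140924929. Transcription of the canonical form starts at 140924929. The DMSO peak, from 140924573 to 140924922, held 13 tags at the summit (6.92 to 22.2). The AMG510 peak, from 140924617 to 140924863, held 11 tags (5.49 to 19.7), and the trametinib peak, from 140924765 to 140924971, held 17 tags (9.90 to 27.2). The trametinib summit had the most tags of any promoter summit in the set and the AMG510 summit the fewest of the BRAF summits, but the intervals of all 3 overlap.

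All BRAF summits lay in the 5′ UTR of exon 1, at 108 bp (DMSO), 183 bp (AMG510) and 81 bp (trametinib) downstream of the start. The DMSO and AMG510 peaks shared 247 bp, and the DMSO and trametinib peaks 158 bp. Ranked within their own lists, the fold enrichments of 4.07 in DMSO, 3.66 in AMG510 and 5.22 in trametinib were above 26.5, 11.6 and 76.7% of peaks. The BRAF peak was thus among the weaker ones in DMSO and AMG510. Of the 384 DMSO promoter peaks in its decile of the list, AMG510 peaks overlapped 17.2% and trametinib peaks 14.3%.

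No CACGTG lies within 1 kb of the canonical BRAF start. The nearest CACGCG was 160 bp from the trametinib summit, 187 bp from that of DMSO and 262 bp from that of AMG510, outside every BRAF peak. The GC content within 100 bp of the summit was 84.1% in DMSO, 80.1% in AMG510 and 82.6% in trametinib, in contrast to medians over all promoter peaks of 72.1, 71.6 and 71.6%. The 30 bases at each summit, on the gene strand from chr7:140924807-140924836 (DMSO), chr7:140924732-140924761 (AMG510) and chr7:140924834-140924863 (trametinib), are shown because BRAF had a promoter peak in each c-MYC list and no E-box near any of the summits.
BRAF, DMSO summit: ccgctcctccccgcgccccccgcgcccccc
BRAF, AMG510 summit: ctcccttccccctccccgcccgacagcggc
BRAF, trametinib summit: cgccctccgcccgcggcgccgcccgggccg

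BRAF also held a peak away from the promoter in each drug list, at a different place. The AMG510 peak, from 140724821 to 140725009, lies past the end of the canonical transcript but inside the annotated gene, with 12 tags (6.20 to 21.0). The trametinib peak, from 140872329 to 140872491 in intron 1, also held 12 tags (6.20 to 21.0). Sequence within 100 bp of these summits had a GC content of 34.3 and 26.4%, far below that of the promoter summits, and held neither E-box form. With the SOS1 peak in intron 1, these were the only peaks of the set outside promoters in the 4 lists.

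MAP2K1, which encodes MEK1, is a plus-strand gene on chromosome 15, at 66386837 to 66491656, whose canonical start is 66386912. The DMSO peak, from 66387055 to 66387282, held 12 tags (6.20 to 21.0) at a summit 208 bp downstream of the start, in the 5′ UTR. The AMG510 peak, from 66386929 to 66387220, held 9 tags (4.12 to 17.1), the fewest of the set, with its summit 41 bp downstream. These peaks shared 166 bp. The trametinib peak, from 66386616 to 66386778, held 12 tags (6.20 to 21.0), but its summit was 226 bp upstream, and a gap of 276 bp parted it from the DMSO peak.

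MAP2K1 shares this region with TIPIN, a gene of the replication fork that is transcribed in the opposite direction, and each of the 3 peaks counts for both genes. The trametinib summit lay 26 bp downstream of a coding start of TIPIN, nearer than to that of MAP2K1. The AMG510 summit was 207 bp and the DMSO summit 374 bp upstream of the nearest coding start of TIPIN, farther than from that of MAP2K1. MAP2K1 therefore counts as having a promoter peak in each c-MYC list, but the trametinib peak is apart from the DMSO and AMG510 peaks, which overlap. In their own lists these peaks were above 53.9% (DMSO), 29.5% (AMG510) and 72.6% (trametinib) of peaks by fold enrichment. Neither E-box form was found within 1 kb of the MAP2K1 start.

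MAP2K2, which encodes MEK2, is a minus-strand gene on chromosome 19, at 4090321 to 4124122, and its canonical start is at the upper end. Its DMSO peak, from 4123845 to 4124096, held 15 tags (8.40 to 24.7) at a summit 121 bp downstream of the start, in the 5′ UTR of exon 1. Its fold enrichment, 5.06, exceeded 68.3% of DMSO peaks. No AMG510 peak was found within 105 kb of the gene and no trametinib peak within 25.3 kb. The sole E-box form within 1 kb of the start was a CACGCG, 315 bp from the summit and outside the peak.

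MAPK3, which encodes ERK1, is a minus-strand gene on chromosome 16, at 30114105 to 30123506 and has 7 coding start sites, the canonical one at 30123220. The DMSO peak, from 30123323 to 30123499, held 16 tags (9.15 to 26), with its summit 200 bp upstream of the canonical start and 86 bp downstream of the start farthest upstream. With a fold enrichment of 4.99, this peak exceeded 64.5% of its list. Inside the peak, as printed above, were a CACGTG at 30123350 to 30123355, 65 bp from the summit, and a CACGCG at 30123331 to 30123336, 84 bp from it. The nearest AMG510 peak was 48.8 kb and the nearest trametinib peak 118 kb from the gene. Of the 478 DMSO promoter peaks in the decile of the list that holds both MAPK3 and MAP2K2, AMG510 peaks overlapped 25.3% and trametinib peaks 18.8%, so most DMSO promoter peaks of like rank had no overlap in either comparison.

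**Figure D3:**
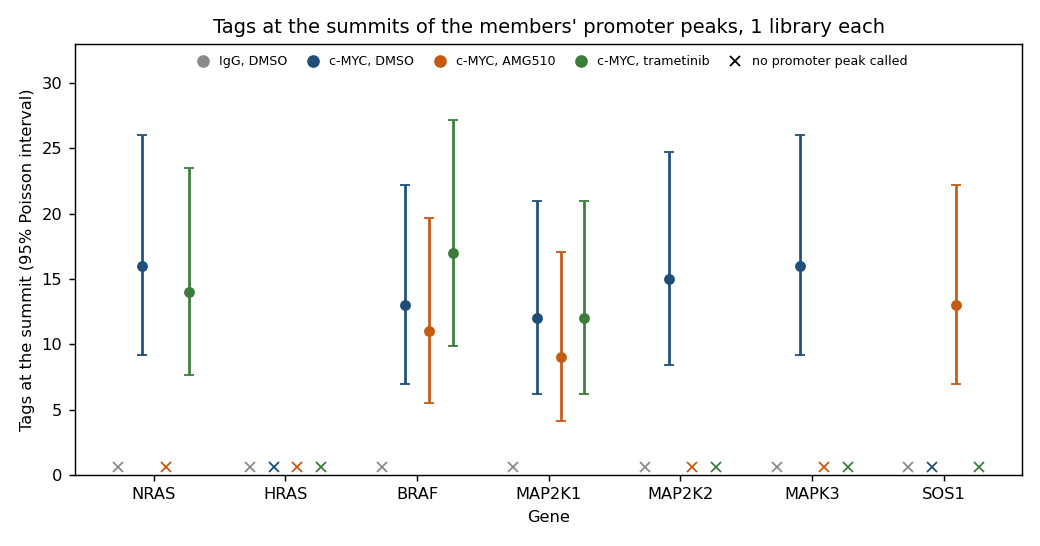
Tags at the summit of each promoter peak (y axis, with exact 95% Poisson intervals) for the 7 genes in the 4 libraries, with a cross where no promoter peak was called. Summits held between 9 tags (MAP2K1, AMG510) and 17 tags (BRAF, trametinib), and the intervals of different libraries overlap for every gene with more than 1 promoter peak.

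Across the set, the DMSO peak was overlapped by an AMG510 peak at 2 of 5 genes (BRAF and MAP2K1), where 36.0% of all genes with a DMSO promoter peak had such an overlap. For trametinib it was also 2 of 5 (NRAS and BRAF), where 30.4% of genes had one. These comparisons share the DMSO library. BRAF was overlapped in both drug lists. The share of all genes overlapped in both was not counted, so whether this is unusual is not known. Among promoter peaks of the set, an E-box lay within 100 bp of the summit at 2 genes in DMSO (NRAS and MAPK3), 0 in AMG510 and 0 in trametinib. Among all promoter peaks, 16.9% had one in DMSO, 14.4% in AMG510 and 17.3% in trametinib. In RefSeq windows from 250 bases before to 50 after the start, CACGTG was found in 7.26% and CACGCG, read on either strand, in 11.4% of 35116 windows. The DMSO summits of the set held 12 to 16 tags, where the median over all DMSO promoter peaks was 16.

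With peaks anywhere in the gene or within 10 kb, the counts were the same as for promoters, with 5 of 7 genes in DMSO, 3 of 7 under each drug and 0 in the control list. Over all genes the shares were 38.8% for DMSO, 33.7% for AMG510, 22.9% for trametinib and 7.86% for IgG. The wider region thus added genes to the count over all genes and none to the count of the set. The IgG peak nearest to any of the 7 genes was 15 kb from HRAS, and for the other genes the distance was between 75.3 and 857 kb.

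The other genes of the pathway were taken as a list of 22. A promoter peak was found at 7 of them in DMSO (31.8%), at 5 in AMG510 (22.7%), at 5 in trametinib (22.7%) and at 0 in IgG. The shares of all protein-coding genes in these lists were 24.2, 15.3, 11.8 and 0.559%. A promoter peak in any c-MYC list was found at 12 of the 22 genes, and at 6 of the 7 members, where 31.7% of all genes had one. ARAF, KSR1, GAB1, SHOC2, MRAS, RRAS, LZTR1, LAMTOR3, RASGRP1 and RGL1 had none.

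Among genes that act on RAS, NF1, a GTPase-activating protein that switches RAS off, had the largest fold enrichment of the pathway list in DMSO. Its peak held 21 tags (13.0 to 32.1) and a fold enrichment of 8.37 that exceeded 96.6% of the list. NF1 was also the only one of the 22 with a promoter peak in all 3 c-MYC lists, with 11 tags in AMG510 (5.49 to 19.7) and 16 in trametinib (9.15 to 26). RASA1, of the same function, had 12 tags in DMSO (6.20 to 21.0) and 16 in AMG510 (9.15 to 26). RASA2 had a peak in AMG510 alone, with 13 tags (6.92 to 22.2). The promoter peak of SOS2, the paralogue of SOS1, was in AMG510 alone, with 16 tags (9.15 to 26), above 91.0% of that list. That of GRB2, the adaptor that binds SOS proteins, was also in AMG510 alone, with 13 tags (6.92 to 22.2). SOS1 and RASA2 share this pattern, which 4.21% of all genes had, and no AMG510 promoter peak of these genes had a score above 60.

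Among the remaining genes of the list, PEBP1, which encodes an inhibitor of RAF kinase signalling, had a promoter peak in DMSO alone with 12 tags (6.20 to 21.0). SHC1, an adaptor of receptors, and PTPN11, which encodes the phosphatase SHP2, had one in DMSO alone, with 20 tags (12.2 to 30.9) and 13 tags (6.92 to 22.2). SPRED1, which restrains RAS to ERK signalling together with NF1, had one in DMSO with 16 tags (9.15 to 26) and in trametinib with 15 tags (8.40 to 24.7). RALGDS, a RAS effector that activates RAL, had 3 promoter peaks in DMSO, the strongest with 26 tags (17 to 38.1), and 2 in trametinib, the strongest with 17 tags (9.90 to 27.2). SPRED2 and the RAS-related GTPase RRAS2 had one in trametinib alone, with 13 tags (6.92 to 22.2) and 12 tags (6.20 to 21.0). Some of these calls turn on the start site or window: with the canonical start alone, SHC1 lost its DMSO peak and SPRED2 its trametinib peak. Within 2 kb SPRED2 had a DMSO peak as well, and within 500 bp SPRED1 had none in DMSO or trametinib. Genes that share a promoter peak were sought for the members only, so peaks of this list may also count for a neighbour.

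**Figure D4:**
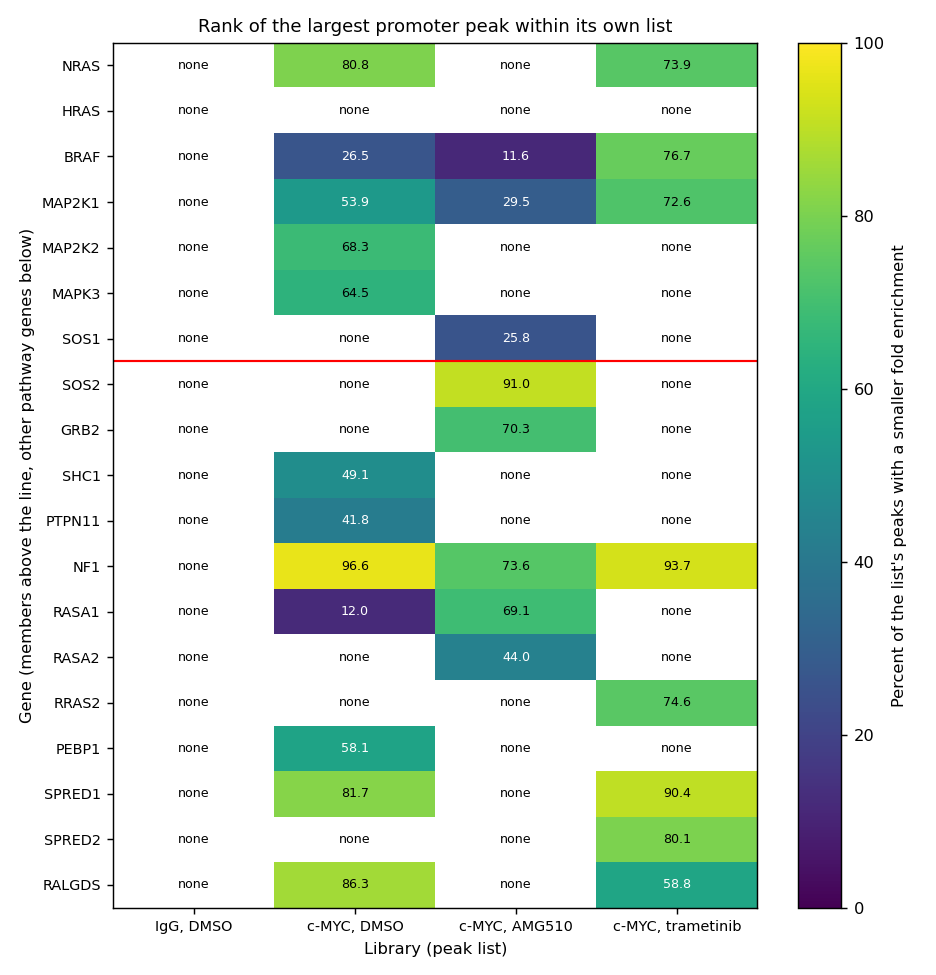
Rank of the largest promoter peak of each member (above the line) and of the 12 other pathway genes with a promoter peak (below), given as the percent of peaks of the same list with a smaller fold enrichment. NF1 stands highest in DMSO at 96.6, and the BRAF peak in AMG510 lowest at 11.6.

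The genes most like a member in these ranks were sought for the members with a promoter peak in at least 2 lists, by the distance in percent between ranks over the 4 lists. For NRAS these were PLSCR3 (distance 0.612), ZNF8 (3.36) and MC1R (4.22). For BRAF they were AUP1 and HTRA2 (7.62 each) and EIF4A2 (10.7), and for MAP2K1 RBM26 (6.25), BAG3 (8.93) and MFSD12 (13.4). AUP1 and HTRA2 had identical ranks in every list, so they may count the same peaks. PLSCR3 was the closest, with a rank of 80.3 in DMSO and 73.6 in trametinib and no promoter peak in AMG510 or IgG.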

How the data were processed

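The 4 deposited peak lists, 1 per library, were used as the authors made them. Per the study's methods, the authors trimmed reads (Trimmomatic 0.39), mapped them to GRCh38 (BWA 0.7.17), filtered alignments (SAMtools 1.9, Picard), called peaks in each library (MACS2 2.2.7.1, default settings) and applied the ENCODE exclusion list. The deposited values are a score (10 times the −log10 q-value), a fold enrichment (a ratio of tags to background, each plus 1), the −log10 p-value and the −log10 q-value. Tags at each summit were solved from the fold and p-value, taking each list as called without a control. The solving was tested on data simulated by the same formula, which does not test that assumption. Starts and exons came from GENCODE version 44 and promoter sequences from RefSeq, where 7 of 7 genes matched. The genome sequence used holds every contig of the lists, and 1 peak in each list ran past the end of its contig. Genes were counted by symbol, without the mitochondrial genome. Motifs were read on both strands.

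Samples were grouped by title. The genes named were the 7 members, pathway genes with a c-MYC promoter peak, genes sharing a member's peak and the 3 most similar genes; RNH1 was added after its values were seen. The members and lists were chosen with earlier results of these data known. Alternatives were other start sites, windows, overlaps and thresholds. What AMG510 acts on and 2 genes of the planned pathway list are not reported here. Python 3.11.15, pysam 0.24.0 and scipy 1.17.1 were used.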

Additional observations from a re-analysis of the deposited data

How the results depend on the processing

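For the 12 reported counts above 0, 42 of 60 alternative values were within 1.5 times of the reported count and 18 were lower. The other 6 counts were 0, which a stricter setting cannot change, and a wider one raised 1 of them. The stricter thresholds moved most. With a fold enrichment above 5, the members with a promoter peak, or with a peak in the gene or within 10 kb, fell to 2 in DMSO (NRAS and MAP2K2) and 0 in AMG510, and the pathway list to 3 in DMSO and 1 in AMG510. Over all genes, the shares with a promoter peak above that limit were 12.1% (DMSO), 5.75% (AMG510) and 4.87% (trametinib), from 24.2, 15.3 and 11.8%. No AMG510 peak above that limit overlapped a member's DMSO promoter peak (0). The share of all genes with such an overlap was not counted. With a score above 60, which depends on the q-values of the whole library, 1 member was left in DMSO (NRAS), 0 in AMG510 and 0 in trametinib by either region, and 3, 0 and 1 genes of the pathway list, where 9.81, 2.98 and 2.93% of all genes had such a promoter peak. For peaks in the gene or within 10 kb, the shares of all genes were not counted at either limit. An overlap of at least 50% of the shorter peak left 1 member for trametinib (BRAF), since the NRAS peaks share a smaller part. With summits at most 1 kb apart, the count for trametinib was 3 (NRAS, BRAF and MAP2K1). The shares of all genes under these overlap settings were not counted. An E-box within 50 bp of the summit was found at 1 member in DMSO (NRAS), and one within 250 bp at 1 member in trametinib (NRAS). The shares of all promoter peaks were counted for 100 bp alone, so these counts have no background. Changes of start sites, promoter window or flank moved no count beyond 1.5 times, but with the canonical start alone SOS1 (AMG510), SHC1 (DMSO) and SPRED2 (trametinib) lost their promoter peak. Within 500 bp SPRED1 lost it in DMSO and trametinib, and within 2 kb SPRED2 gained one in DMSO. No paired analysis was possible because no group holds more than 1 library, which also leaves no replicate to omit. Promoter summits of the set held 9 to 17 tags. Those of BRAF and MAP2K1 in AMG510 were nearest the calling limit, with −log10 q-values of 2.1 and 2.19. The weakest peak of any gene in the DMSO and AMG510 lists had 1.3. The DMSO summits of NRAS, MAP2K2 and MAPK3, genes with no AMG510 peak, were well above that limit, at 6.21, 5.01 and 5.18. The tags at a site with no peak are not known, and each treatment has 1 library. A missing peak thus says little of a change in binding.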
